A study of Homo sapiens with 16 samples.

Results

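Collagen chains are encoded by protein-coding genes whose symbols follow one pattern, COL, a number, A and a number. In the gene table of this series, 44 of 19143 protein-coding genes fit that pattern, out of 60666 gene identifiers in all. Of the 44, 25 had a mean of at least 1 CPM (CPM is a count scaled to the total of its library) over the 15 libraries used and are described one by one, and 19 fell below that level. Membership used the symbol alone. The line at 1 CPM fell between COL11A2 (mean 1.06 CPM) and COL26A1 (1.41) on the upper side and COL8A2 (0.878) and COL20A1 (0.862) on the lower side.

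Collagens are proteins in which 3 chains wind into a triple helix, and each type draws on its own chain or set of chains. Fibrillar collagens form the tensile fibres of bone, skin and tendon, collagen IV forms the sheet of basement membranes, and collagen VI forms beaded filaments around cells. Smaller classes sit on the surface of fibrils, span the plasma membrane or form other networks. Osteoblasts, the bone-forming cells, mainly secrete collagen I, made of COL1A1 and COL1A2 chains.

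The series measured RNA in U2OS cells, an established human osteosarcoma line, carrying stable short hairpin vectors against the phosphatidylinositol 5-phosphate 4-kinases, lipid kinases that turn PI5P into PI(4,5)P2. The 4 lines carried plko.puro (an empty puromycin-selection vector), shPIP4K2A, shPIP4K2B or shPIP4K2A/2B, the double knockdown. Each line was sequenced untreated and 6 h after 30 J/m2 of UV-C light, which damages DNA, with 2 replicates in each of the 8 groups. Ribosomal RNA was removed before strand-specific libraries were built. All lines, the controls included, were held under puromycin. No group analysed here carried a non-targeting hairpin, so an effect of the lost kinase and one of a hairpin in itself cannot be told apart. The labels do not say whether a line is 1 clone, or whether replicates are separate cultures, so p-values may measure technical spread only.

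Replicate 1 of the untreated empty-vector cells was set aside. It held 1280000 counts against 28000000 to 39870000 in the other 15 libraries, mitochondrial genes took 14.6% of its counts against 2.20 to 3.43%, and its log2 CPM correlated with theirs at r = 0.508 to 0.568, against at least 0.957 among the 15. The untreated control was therefore a single library, and its spread was assumed to be that of the other groups. The targeted genes followed the labels: PIP4K2A stood at 7.48 to 22.9 CPM in lines with its hairpin against 43.2 to 62.9 in the others, and PIP4K2B at 11.4 to 26.6 against 65.1 to 107. Of 8 osteoblast and mesenchymal markers, 5 had a median of at least 1 CPM, led by VIM (1907 to 3631) and SPARC (656 to 1525). The osteoblast genes SP7, BGLAP and IBSP never passed 0.61 CPM. Of 6 fibroblast markers, 5 had a median of at least 1 CPM, namely THY1 (149 to 233), PDGFRB (51.8 to 78.3), LUM (11.8 to 40.4), PDGFRA (3.48 to 31.9) and FAP (3.83 to 5.75), while DCN was at most 0.376.

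Levels of different genes were compared in TPM, which also divides by gene length. COL1A1 led in all 15 libraries, at 131 to 447 TPM, and supplied 33.9 to 53.5% of all collagen TPM. COL4A2 came next with a mean of 67.7 TPM, followed by COL12A1 at 49.6, COL6A1 at 38.9, COL4A1 at 37.1 and COL6A2 at 32.4. COL5A1 averaged 23.7 TPM, COL6A3 15.5 and COL16A1 10.2. The lowest COL1A1 library stood above the highest COL4A2 library (99.6 TPM), whereas the genes below COL1A1 lay on a gradual slope. The 8 highest members together made up 86.7 to 92.4% of collagen TPM, and the 25 described members 99.7 to 99.9%. By class, fibrillar chains took 44.6 to 61.7% of collagen TPM, basement membrane chains 11.5 to 23.1%, collagen VI 9.56 to 20.7% and FACIT chains, which sit on fibril surfaces, 7.84 to 12.4%.

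**Figure D1:**
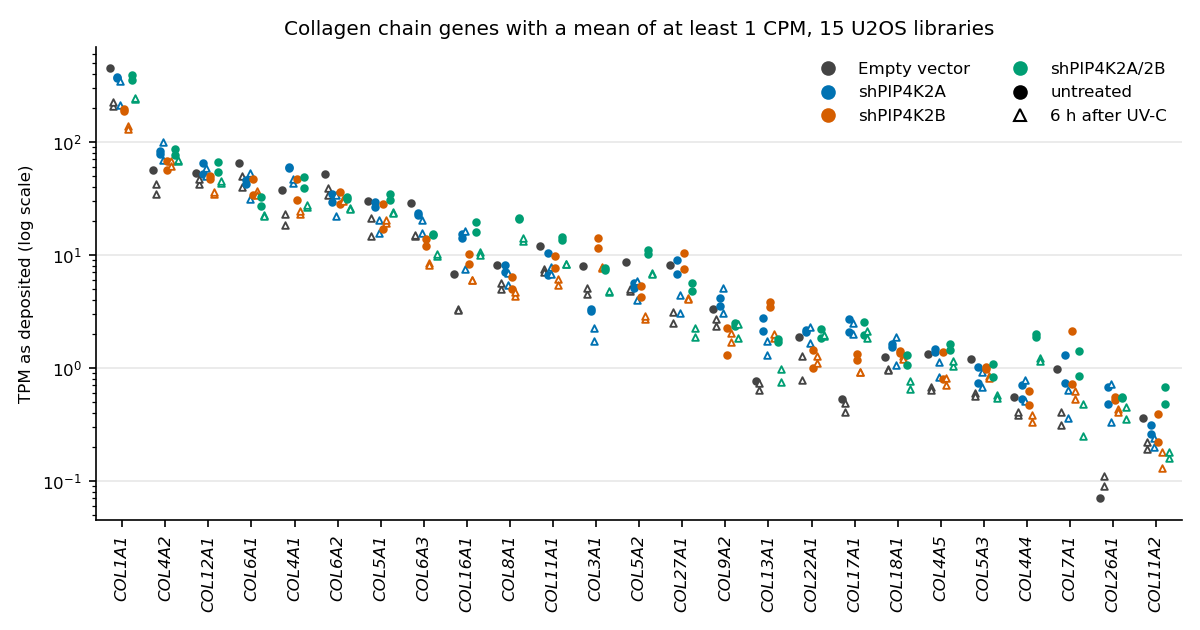
TPM (log axis) of the 25 collagen genes with a mean of at least 1 CPM, ordered by mean TPM, with 1 point per library and colours for the 4 lines (filled untreated, open after UV-C). COL1A1 lies at 131 to 447 TPM, above every point of every other member.

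The usual partner of COL1A1 was almost absent. COL1A2 held 0 to 25 expected counts per library, or at most 0.627 CPM. Both zeros, in untreated shPIP4K2A/2B replicate 1 and UV-treated shPIP4K2B replicate 2, allow at most 0.0992 and 0.0939 CPM (3 counts, counting error only). In several other collagen types too, a chain was expressed while a partner fell under 1 CPM. COL9A2 (mean 2.71 TPM) was described without COL9A1 and COL9A3, its partners in collagen IX. COL4A4 (0.795 TPM) was described while COL4A3 was under the line, and COL8A1 (9.08 TPM) while COL8A2 was just under it. Collagen VI had all of its 3 classical chains above 1 CPM, and COL6A5 and COL6A6 below. Collagen V had its 3 chains COL5A1, COL5A2 and COL5A3. The COL11 genes COL11A1 and COL11A2 were above 1 CPM too, whereas the fibrillar gene COL2A1 averaged 0.199 CPM.

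Of the 44 genes, 38 had enough counts for the test, all 25 described members and 13 of the other 19. COL2A1, COL21A1, COL25A1, COL9A1, COL6A5 and COL23A1 were not tested. Each comparison used edgeR's quasi-likelihood test over 22597 genes, and a gene was called at a Benjamini-Hochberg adjusted p under 0.05. In untreated cells against the empty vector, 5 collagen genes were called higher and 6 lower in shPIP4K2A, which is 28.9% of those tested. Of all genes 7.84% were called there (3.71% higher, 4.13% lower). In shPIP4K2B 4 were higher and 7 lower (28.9%), with 10.2% of all genes called (5.26% higher, 4.99% lower). In the double knockdown 6 were higher and 4 lower (26.3%), with 6.2% of all genes called (3.24% higher, 2.96% lower). After UV-C, 8 were higher and 2 lower in shPIP4K2A (26.3%), with 20.3% of all genes called (11.3% higher, 9.01% lower). In shPIP4K2B 10 were higher and 4 lower (36.8%), with 19% of all genes called (10.7% higher, 8.3% lower). In the double knockdown 10 were higher and 5 lower (39.5%), with 15.4% of all genes called (8.5% higher, 6.86% lower). With ribosomal protein genes as the scale, the counts became 7 higher and 3 lower untreated and 16 and 2 after UV-C in shPIP4K2A, and 6 and 3, then 13 and 5, in the double knockdown. In shPIP4K2B they became 3 higher and 5 lower untreated, and 8 and 4 after UV-C. The 3 lines share the same empty-vector libraries, so the comparisons are not independent of each other. Of all genes that scaling called 10.2% higher and 1.33% lower untreated and 21.3% and 3.69% after UV-C in shPIP4K2A, and 7.76% and 0.974%, then 12.1% and 3.4%, in the double knockdown. In shPIP4K2B it called 5.74% higher and 2.41% lower untreated, and 8.34% and 6.59% after UV-C. The median log2 fold change of the tested members lay between -0.11 and 0.21 in the 6 comparisons, beside -0.01 to 0.01 for all genes, so the calls went in both directions within the family.

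In all that follows, a call is described as firm where it held under every alternative run on the 15 libraries, namely another tool, other scalings, no filter on low counts, a replicate term and each library left out in turn. The single untreated empty-vector library could not be left out, so firm calls against it still rest on it, whereas those after UV-C use other control libraries. Of the 94 calls between lines among the 25 described members, 51 were firm and 43 were lost under at least 1 alternative. With the set-aside library kept, the untreated comparisons called 0, 1 and 0 collagen genes. In bulk RNA, fewer cells with a transcript and less transcript per cell cannot be told apart.

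**Figure D2:**
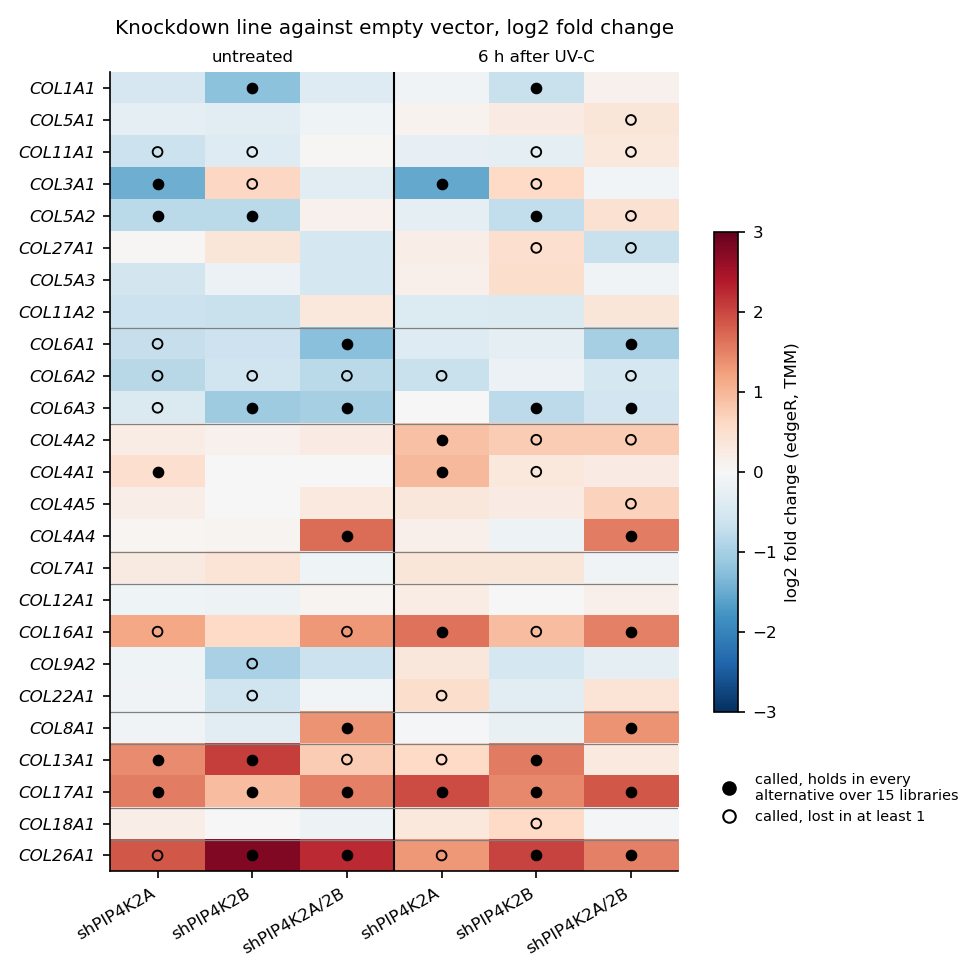
Log2 fold change of the 25 described collagen genes in each knockdown line against the empty vector, untreated (left) and after UV-C (right); filled dots mark calls that held under every alternative over the 15 libraries and open dots calls lost under at least 1. COL17A1 is higher in all 6 columns with a filled dot in each, and COL6A3 lower with a filled dot in 4.

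Among the fibrillar chains, COL1A1 (ENSG00000108821, chr17:50183289-50201632, minus strand, GRCh38), the main chain of bone matrix, was lower in the shPIP4K2B line. It stood at 3265 CPM in the untreated empty-vector library, at 1354 and 1381 in untreated shPIP4K2B, and at 2149 to 2678 in the 4 other untreated knockdown libraries. After UV-C it stood at 2388 and 2351 CPM in the empty vector and at 1452 and 1363 in shPIP4K2B. The groups did not overlap in either state. The log2 fold change was -1.23 untreated (SE 0.152, edgeR adjusted p = 0.000296) and -0.67 after UV-C (SE 0.129, adjusted p = 0.00300), both firm. With the set-aside library kept the untreated value was -0.25 (edgeR adjusted p = 0.890). COL1A1 was also higher in the double knockdown than in shPIP4K2B, by 0.84 on the log2 scale (SE 0.129, edgeR adjusted p = 0.000773, firm), a comparison with no empty-vector library in it. Its difference between untreated shPIP4K2B and shPIP4K2A (-0.72, edgeR adjusted p = 0.00918) was lost with some libraries left out, at up to 0.0934. In shPIP4K2A and the double knockdown COL1A1 did not pass the test against the empty vector. Its share of collagen TPM was 53.5% in the untreated empty-vector library and 39.8 and 35.2% in untreated shPIP4K2B. After UV-C that share was 47.1 and 45.1% in the empty vector and 34.3 and 33.9% in shPIP4K2B.

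COL3A1 (chr2:188974320-189012746, plus strand), the collagen III chain of skin, vessels and elastic tissues, moved in opposite directions in the 2 single knockdowns. It stood at 52.0 CPM in the untreated empty-vector library, 20.5 and 18.1 in shPIP4K2A, 78.7 and 78.4 in shPIP4K2B, and 43.3 and 41.4 in the double knockdown. After UV-C the values were 45.3 and 44.0, 13.1 and 18.7, 64.1 and 62.9, and 41.1 and 40.7 CPM in the same order of lines. The lines therefore stood in the same order in both states. In shPIP4K2A the fall was firm, at -1.46 untreated (SE 0.146, edgeR adjusted p = 0.000100) and -1.53 after UV-C (SE 0.126, adjusted p = 9.77e-06). In shPIP4K2B the rise was 0.62 untreated and 0.59 after UV-C (edgeR adjusted p = 0.0199 and 0.00458). The first was lost without either untreated shPIP4K2B library (adjusted p = 0.0779 without replicate 1), and the second under scaling to ribosomal protein genes (0.0540). The direct difference between shPIP4K2B and shPIP4K2A was 2.09 (SE 0.127, edgeR adjusted p = 1.88e-06) and firm. The untreated double knockdown lay between the single knockdowns, 1.14 above shPIP4K2A (SE 0.126, edgeR adjusted p = 0.000167) and with a log2 fold change of -0.94 against shPIP4K2B (SE 0.122, adjusted p = 0.000213), both firm. The TPM ratio of COL1A1 to COL3A1 was 13.9 to 17.9 in shPIP4K2B, 44.9 to 55.5 in the empty vector, 46.5 to 53.8 in the double knockdown and 94.4 to 199 in shPIP4K2A.

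COL5A2 (chr2:189031896-189225312, minus strand), a collagen V chain that helps set fibril diameter, lies next to COL3A1 on chromosome 2. It was lower in both single knockdowns and not in the double. Untreated values were 81.8 CPM in the empty vector, 48.2 and 46.9 in shPIP4K2A, 46.2 and 45.3 in shPIP4K2B, and 93.0 and 89.9 in the double knockdown. After UV-C they were 64.5 and 60.6, 62.0 and 44.1, 34.6 and 36.2, and 84.4 and 81.8 CPM. The fall was firm untreated in shPIP4K2A (-0.82, SE 0.147, edgeR adjusted p = 0.00494) and in shPIP4K2B in both states (-0.81 untreated, adjusted p = 0.00391; -0.74 after UV-C, adjusted p = 0.00120). The double knockdown stood 0.95 above each single knockdown on the log2 scale (edgeR adjusted p = 0.000536 and 0.000243), both firm. Its own difference from the empty vector passed after UV-C at 0.46 but was lost without any of the 4 UV-treated libraries of these lines, with adjusted p up to 0.132.

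Of the other fibrillar chains, COL11A1 and COL27A1 each had 1 firm call. COL11A1, a minor chain that starts fibrils in cartilage, was 41.9 CPM in the untreated empty-vector library, 29.5 and 25.7 in shPIP4K2A, 32.8 and 30.5 in shPIP4K2B, and 44.8 and 42.6 in the double knockdown. Its firm difference was between the double knockdown and shPIP4K2A, at 0.67 (edgeR adjusted p = 0.000610). Its fall in untreated shPIP4K2A (-0.64, edgeR adjusted p = 0.00324) ended under ribosomal protein scaling (0.194), as did that in untreated shPIP4K2B (-0.38, adjusted p = 0.0428, then 0.457). After UV-C COL11A1 was 35.3 and 32.2 CPM in the empty vector, 25.4 and 26.7 in shPIP4K2B (-0.30, edgeR adjusted p = 0.0342) and 41.3 and 40.3 in the double knockdown (0.32, adjusted p = 0.0264). Both of those calls were lost with some libraries left out, at up to 0.240 and 0.174, as was the untreated difference between these knockdown lines (0.41, edgeR adjusted p = 0.00696, up to 0.0928). COL27A1, another cartilage fibril chain, was 32.9 and 37.6 CPM in untreated shPIP4K2B and 18.7 and 20.6 in the double knockdown, a firm difference of -0.89 (edgeR adjusted p = 0.00223). After UV-C it was 18.5 and 18.1 CPM in the empty vector, 24.9 and 24.0 in shPIP4K2B (0.50, edgeR adjusted p = 0.0460, up to 0.185 with a library left out) and 10.7 and 11.5 in the double knockdown (-0.68, adjusted p = 0.0155, up to 0.113). Those 3 groups did not overlap. COL11A2 stood at 1.79 and 1.76 CPM in the untreated double knockdown and at 0.789 to 0.964 in the single knockdowns. Those differences, 0.95 against shPIP4K2A and 0.97 against shPIP4K2B, were lost under DESeq2 and without either untreated double-knockdown library. COL5A1, at 142 to 197 CPM throughout, was, among the comparisons between lines, called only in the double knockdown after UV-C (0.36, edgeR adjusted p = 0.0428, up to 0.203 with a library left out). COL5A3 was called in none of the 16 comparisons run with TMM.

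**Figure D3:**
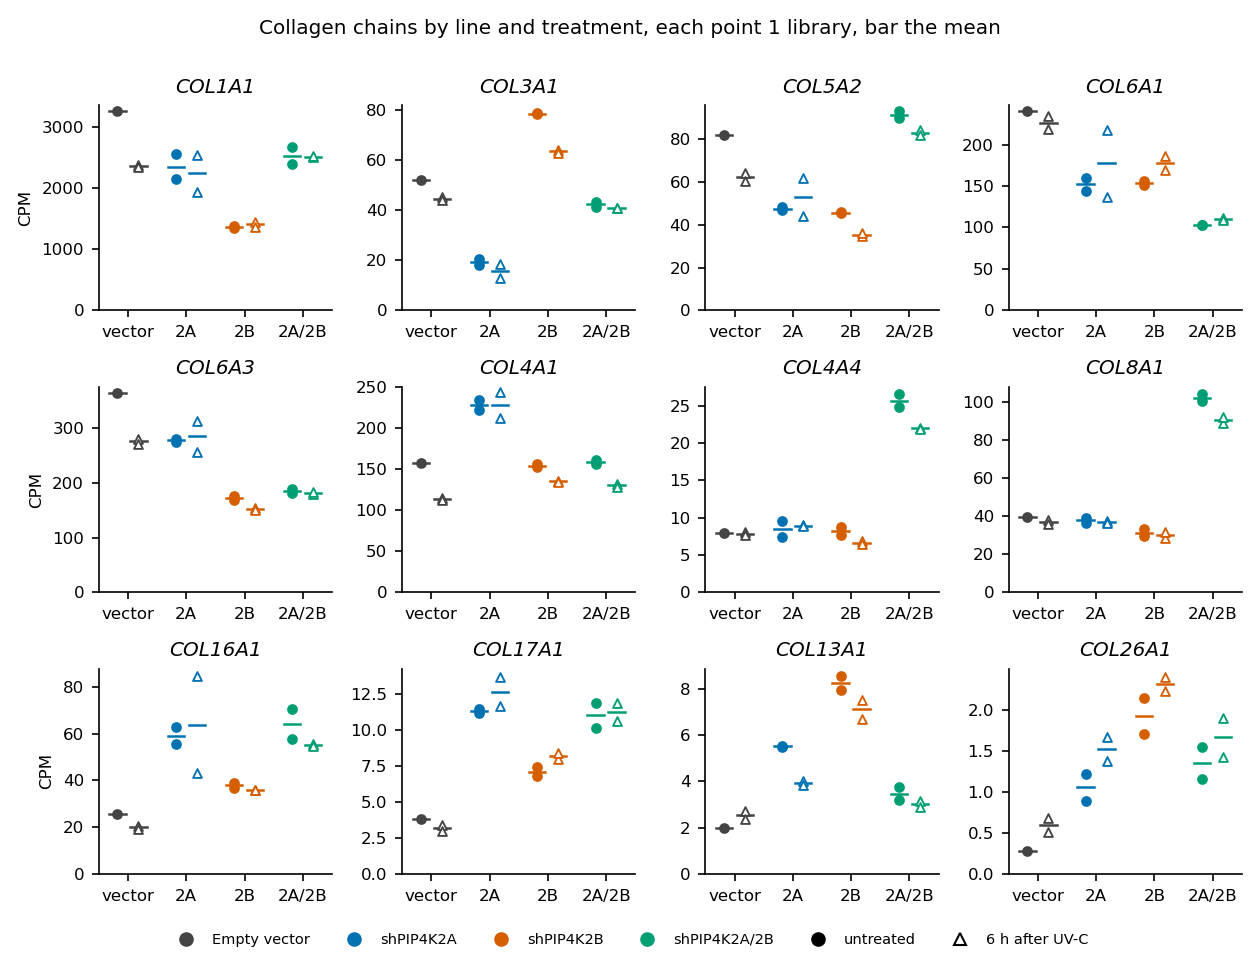
CPM of 12 collagen genes in each of the 15 libraries, by line and treatment (filled untreated, open after UV-C), with a separate linear axis from 0 for each gene. COL3A1 is lowest in shPIP4K2A and highest in shPIP4K2B, and COL8A1 and COL4A4 are high only in the double knockdown, at 88.7 to 104 and 21.93 to 26.5 CPM.

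COL6A3 was lower in both lines with the PIP4K2B hairpin, and COL6A1 in the double knockdown. Collagen VI is the microfibril that links cells to the surrounding matrix. COL6A3 (chr2:237324003-237414375, minus strand) was 365 CPM in the untreated empty-vector library, 275 and 281 in shPIP4K2A, 176 and 168 in shPIP4K2B, and 181 and 190 in the double knockdown. After UV-C it was 281 and 272, 313 and 257, 154 and 150, and 179 and 182 CPM. Among the 15 libraries used, in both states every library with the PIP4K2B hairpin lay below every library without it. The set-aside empty-vector library stood lower still, at 117 CPM. The fall was firm in shPIP4K2B (-1.05 untreated, SE 0.111, edgeR adjusted p = 9.24e-05; -0.78 after UV-C, adjusted p = 0.000108) and in the double knockdown (-1.003, adjusted p = 0.000239; -0.56, adjusted p = 0.00150). Both lines were also below untreated shPIP4K2A, by -0.63 and -0.58 (edgeR adjusted p = 0.00283 and 0.00245, both firm). With the set-aside library kept, the untreated values against the vector were -0.28 and -0.21 (edgeR adjusted p = 0.759 and 0.816). In shPIP4K2A the untreated call (-0.43, edgeR adjusted p = 0.0373) ended under ribosomal protein scaling, at 0.463.

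COL6A1 (chr21:45981737-46005050, plus strand) fell furthest in the double knockdown. It was 241 CPM in the untreated empty-vector library, 144 and 160 in shPIP4K2A, 152 and 156 in shPIP4K2B, and 102 and 103 in the double knockdown. The UV-treated values were 218 and 235, 218 and 137, 186 and 170, and 111 and 109 CPM. The 4 double-knockdown libraries were the lowest of the 15. Their fall was firm in both states, at -1.25 (SE 0.191, edgeR adjusted p = 0.00200) and -0.99 (SE 0.162, adjusted p = 0.00136). In untreated shPIP4K2A the call (-0.70, edgeR adjusted p = 0.0449) was lost under most alternatives, at up to 0.218 without replicate 1 of that group. The untreated double knockdown was also below shPIP4K2B (-0.64, edgeR adjusted p = 0.0179), a call lost without any of the 4 libraries compared, at up to 0.0957. COL6A2, its neighbour (chr21:46098097-46132849, plus strand), was 240 CPM in the untreated empty-vector library and 125 to 161 in the 6 untreated knockdown libraries. It was called lower in all 3 lines untreated (-0.83, -0.60 and -0.81; edgeR adjusted p = 0.0112, 0.0426 and 0.0144). Each of those calls was lost with some library left out, at up to 0.0821 (shPIP4K2A replicate 1), 0.186 (shPIP4K2B replicate 1) and 0.0864 (double knockdown replicate 1). After UV-C COL6A2 was 226 and 235 CPM in the empty vector, 175 and 124 in shPIP4K2A (-0.66, edgeR adjusted p = 0.00620) and 155.9 and 156.0 in the double knockdown (-0.52, adjusted p = 0.0278). Without empty-vector replicate 2 these calls were lost, at 0.0524 and 0.142. The TPM ratio of COL6A1 to COL6A2 lay between 0.864 and 1.55, so the transcript levels of this pair stayed within a factor of 1.55 of each other.

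The 6 collagen IV genes lie in 3 head-to-head pairs, each pair transcribed outward from a shared stretch of DNA. In RefSeq (GRCh38.p14) the nearest starts are 127 bases apart for COL4A1 and COL4A2, 419 for COL4A3 and COL4A4, and 380 for COL4A5 and COL4A6. The windows below run from 250 bases before to 50 after the annotated start of the plus-strand partner and so reach into or across the stretch between the starts. They are shown because the partners of a pair differed in level and in their changes. Capitals mark matches, on either strand, to 3 promoter motifs that were each searched alone: CCAAT, known as the CCAAT box, then GGGCGG, known as the GC box, and finally TATAAA, the core of the TATA box.
COL4A2, chr13:110307034-110307333, plus strand: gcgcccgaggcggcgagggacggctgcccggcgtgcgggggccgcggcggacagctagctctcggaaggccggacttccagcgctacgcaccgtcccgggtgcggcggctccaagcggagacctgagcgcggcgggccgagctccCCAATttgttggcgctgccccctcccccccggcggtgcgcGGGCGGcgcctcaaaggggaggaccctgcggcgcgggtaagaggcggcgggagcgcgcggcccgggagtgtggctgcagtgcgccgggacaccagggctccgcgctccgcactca
COL4A3, chr2:227164374-227164673, plus strand: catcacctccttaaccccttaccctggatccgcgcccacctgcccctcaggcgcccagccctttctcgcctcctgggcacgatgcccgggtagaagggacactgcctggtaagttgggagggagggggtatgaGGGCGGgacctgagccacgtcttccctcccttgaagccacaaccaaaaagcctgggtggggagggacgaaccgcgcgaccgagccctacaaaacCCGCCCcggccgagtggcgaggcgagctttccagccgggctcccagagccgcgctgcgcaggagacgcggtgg
COL4A5, chrX:108439588-108439887, plus strand: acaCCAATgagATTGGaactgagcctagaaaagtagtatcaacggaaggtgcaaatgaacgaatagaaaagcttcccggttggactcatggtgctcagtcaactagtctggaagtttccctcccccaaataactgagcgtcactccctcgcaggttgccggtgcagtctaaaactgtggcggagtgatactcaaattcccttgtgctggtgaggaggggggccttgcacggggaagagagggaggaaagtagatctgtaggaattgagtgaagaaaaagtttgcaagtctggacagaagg
The COL4A2 window holds 1 CCAAT and 1 GGGCGG match, the COL4A3 window 2 of GGGCGG, and the COL4A5 window 2 of CCAAT. Over all 35116 windows of this length in the table, 34.6% hold CCAAT, 45.0% hold GGGCGG and 11.5% hold TATAAA. A further motif, TGANTCA, bound by AP-1, is held by 7.71%. Windows were found for 32 of the 44 collagen genes (44 windows), of which 31.8%, 54.5%, 18.2% and 2.27% hold them.

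COL4A1 and COL4A2 make the widespread collagen IV; in shPIP4K2A, COL4A1 was higher in both states and COL4A2 after UV-C. COL4A1 was 157 CPM in the untreated empty-vector library and 223 and 234 in shPIP4K2A, and after UV-C 115 and 112 against 244 and 212. The rise was firm in both states, 0.50 untreated (SE 0.105, edgeR adjusted p = 0.0117) and 0.96 after UV-C (SE 0.0847, adjusted p = 1.30e-05). It stood 0.51 lower in the untreated double knockdown than in shPIP4K2A (edgeR adjusted p = 0.00264, firm). Calls for COL4A1 between untreated shPIP4K2B and shPIP4K2A (-0.50, edgeR adjusted p = 0.00621) and in UV-treated shPIP4K2B against the vector (0.33, adjusted p = 0.0165) were lost with some libraries left out, at up to 0.0725 and 0.102. COL4A2 was 249 and 241 CPM in the UV-treated empty vector, 559 and 358 in shPIP4K2A, 404 and 382 in shPIP4K2B, and 403 and 404 in the double knockdown. All 6 UV-treated knockdown libraries were above both controls. The rise was firm in shPIP4K2A (0.87, SE 0.166, edgeR adjusted p = 0.00300). It was lost in shPIP4K2B without replicate 1 of that line (0.76, up to 0.0506) and in the double knockdown without either empty-vector library (0.77, up to 0.0567). The COL4A2 to COL4A1 TPM ratio ranged from 1.29 to 2.97, so the pair did not keep 1 ratio. In the annotation used for positions, COL4A1 and COL4A2 overlap each other on opposite strands. The strand setting of the counting is not given in the sources used here, so reads of this pair may be mixed.

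COL4A4 (chr2:227002711-227164453, minus strand), a chain of the collagen IV of kidney and inner ear membranes, was high only where both kinases were targeted. It was 7.93 CPM in the untreated empty-vector library, 9.53 and 7.43 in shPIP4K2A, 7.68 and 8.76 in shPIP4K2B, and 26.5 and 24.8 in the double knockdown. After UV-C it was 8.08 and 7.67, 8.97 and 8.90, 6.92 and 6.42, and 22.03 and 21.93 CPM. The 4 double-knockdown libraries were all above 21 CPM and the other 11 all below 10. The log2 fold change was 1.67 untreated (SE 0.156, edgeR adjusted p = 6.10e-05) and 1.53 after UV-C (SE 0.119, adjusted p = 5.44e-06), and 1.61 and 1.59 against untreated shPIP4K2A and shPIP4K2B (adjusted p = 9.86e-06 and 3.64e-06), all firm. In the set-aside library COL4A4 stood at 34.4 CPM, and with that library kept the untreated value against the vector was 1.11 (edgeR adjusted p = 0.0784). Its head-to-head partner COL4A3 stayed between 0.063 and 0.999 CPM in all 15 libraries. COL4A5, on chromosome X, was 5.59 CPM in the untreated empty-vector library and 3.85 to 7.01 elsewhere. Its call in the UV-treated double knockdown (0.69, edgeR adjusted p = 0.00507) was lost without replicate 1 of that group (0.0549), and its partner COL4A6 averaged 0.42 CPM.

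COL8A1 (chr3:99638475-99799226, plus strand), a short-chain collagen of vessel walls and of the cornea's basement membrane, was the other gene high only in the double knockdown. It was 39.6 CPM in the untreated empty-vector library, 39.0 and 36.5 in shPIP4K2A, 33.4 and 29.3 in shPIP4K2B, and 100.4 and 104 in the double knockdown. The UV-treated values were 37.8 and 36.1, 37.5 and 36.2, 28.4 and 31.5, and 88.7 and 91.9 CPM. The rise was 1.34 in both states (SE 0.114, edgeR adjusted p = 3.29e-05 untreated; SE 0.0885, adjusted p = 1.77e-06 after UV-C). It was 1.45 against shPIP4K2A and 1.65 against shPIP4K2B (edgeR adjusted p = 2.31e-06 and 2.16e-07), and all 4 calls were firm. In the set-aside library COL8A1 stood at 193 CPM, and with that library kept the untreated value was 0.58 (edgeR adjusted p = 0.283).

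Both expressed transmembrane collagens and COL26A1 were higher in the knockdown lines. COL17A1, the collagen of the hemidesmosomes that anchor epithelial cells, COL13A1, a cell-adhesion collagen, and COL26A1, a secreted collagen of few helix repeats, lie on chromosomes 10, 10 and 7. Their start windows are shown because these genes were called higher in all 3 untreated lines; capitals mark the same letters as above.
COL17A1, chr10:104085831-104086130, minus strand: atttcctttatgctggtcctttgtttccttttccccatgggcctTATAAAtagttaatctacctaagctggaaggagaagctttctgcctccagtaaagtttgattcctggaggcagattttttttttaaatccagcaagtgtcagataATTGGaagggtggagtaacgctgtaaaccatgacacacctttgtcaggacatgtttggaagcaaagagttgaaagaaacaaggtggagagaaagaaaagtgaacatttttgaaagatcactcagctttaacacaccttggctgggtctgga
COL13A1, chr10:69801656-69801955, plus strand: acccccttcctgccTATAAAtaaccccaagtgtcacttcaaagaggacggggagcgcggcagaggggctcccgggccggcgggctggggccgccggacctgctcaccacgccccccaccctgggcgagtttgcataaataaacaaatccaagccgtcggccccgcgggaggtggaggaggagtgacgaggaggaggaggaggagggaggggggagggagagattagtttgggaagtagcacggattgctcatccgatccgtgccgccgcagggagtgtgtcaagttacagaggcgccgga
COL26A1, chr7:101362625-101362924, plus strand: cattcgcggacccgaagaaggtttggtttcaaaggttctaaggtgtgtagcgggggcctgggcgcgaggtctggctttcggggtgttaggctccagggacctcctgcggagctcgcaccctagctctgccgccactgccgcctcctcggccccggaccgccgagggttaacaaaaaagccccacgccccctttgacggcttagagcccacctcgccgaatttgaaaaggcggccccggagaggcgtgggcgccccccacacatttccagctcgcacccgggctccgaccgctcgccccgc
COL17A1 has 1 CCAAT and 1 TATAAA match, COL13A1 has 1 TATAAA match, and COL26A1 has none of the 4 motifs. Both TATAAA matches lie toward the upstream end of their windows, away from the annotated start. Whether they act as TATA boxes was not tested.

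COL17A1 was 3.81 CPM in the untreated empty-vector library, 11.5 and 11.2 in shPIP4K2A, 6.80 and 7.46 in shPIP4K2B, and 11.9 and 10.2 in the double knockdown. After UV-C it was 3.41 and 2.97, 13.7 and 11.7, 8.01 and 8.39, and 10.7 and 11.9 CPM. Every knockdown library lay above every empty-vector library used. The set-aside empty-vector library, at 15.6 CPM, stood above all of the 15 libraries used. The untreated log2 fold changes were 1.54, 0.93 and 1.51 (edgeR adjusted p = 0.000269, 0.00498 and 0.000325), and those after UV-C 1.95, 1.44 and 1.87 (adjusted p = 2.40e-06, 1.97e-05 and 3.62e-06), all 6 firm. With the set-aside library kept, the untreated values were 1.08, 0.47 and 1.06 (edgeR adjusted p = 0.0927, 0.282 and 0.0784), while those after UV-C stayed called, at up to 0.0393. Between knockdown lines, shPIP4K2B was below shPIP4K2A (-0.61, edgeR adjusted p = 0.0232) and the double knockdown above shPIP4K2B (0.58, adjusted p = 0.00862), but both calls were lost with some libraries left out, at up to 0.207 and 0.106.

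The summed level of 7 epithelial markers was also higher in the knockdown lines, a sum of which KRT8 (118 to 579 CPM) and KRT18 (106 to 332) made up 95.2 to 98.7%. The sum was 238 CPM in the untreated empty-vector library and 386 to 479 in the untreated knockdown libraries, and 292 to 296 against 549 to 934 after UV-C. Of the 7 markers 6 had a median of at least 1 CPM, and KRT19 was at most 0.1102 CPM. The other 5 markers summed to 11.5 CPM in the untreated empty-vector library, 17.0 to 17.7 in shPIP4K2A, 6.90 to 7.31 in shPIP4K2B and 13.02 to 14.6 in the double knockdown. After UV-C that sum was 11.7 to 13.5, 19.9 to 22.5, 7.98 to 8.36 and 14.7 to 16.6 CPM in the same order. In shPIP4K2B, where COL17A1 was higher, that sum was lower than in the empty vector, but its members did not move together. KRT14 was lower there, at 0.971 to 1.06 against 5.52 CPM untreated and 1.47 to 1.70 against 5.81 to 6.48 after UV-C. KRT5 was lower in both states too. CDH1 was higher, at 3.03 to 3.52 against 2.66 CPM untreated and 2.73 to 2.85 against 2.28 to 2.34 after UV-C. EPCAM overlapped the empty vector after UV-C. KRT18 overlapped the empty vector in the untreated double knockdown, at 106 to 127 against 109 CPM. The part of these markers in the COL17A1 result was not tested.

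COL13A1 was highest in the shPIP4K2B line. It was 1.99 CPM in the untreated empty-vector library, 5.52 and 5.50 in shPIP4K2A, 8.53 and 7.95 in shPIP4K2B, and 3.17 and 3.75 in the double knockdown. After UV-C it was 2.71 and 2.37, 4.02 and 3.83, 6.70 and 7.51, and 3.13 and 2.90 CPM. The rise was firm in shPIP4K2B in both states (2.08, SE 0.194, edgeR adjusted p = 3.37e-05; 1.56, adjusted p = 1.47e-05) and in untreated shPIP4K2A (1.43, adjusted p = 0.000877). After UV-C the shPIP4K2A call (0.59, edgeR adjusted p = 0.0130) was lost without empty-vector replicate 2 (0.103). The double knockdown lay 1.30 below shPIP4K2B (log2 fold change -1.30, edgeR adjusted p = 5.34e-05, firm). Its own rise over the untreated vector (0.77, edgeR adjusted p = 0.0371) was lost with some libraries left out, at up to 0.158, as were the differences of shPIP4K2B (0.65, adjusted p = 0.0208, up to 0.169) and of the double knockdown (-0.66, adjusted p = 0.0145, up to 0.138) from untreated shPIP4K2A. The set-aside library reversed the untreated values, to -1.14, -0.49 and -1.78 (edgeR adjusted p = 0.339, 0.655 and 0.156), whereas after UV-C the shPIP4K2B value with it was 1.57 (0.729).

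COL26A1 rested on few counts. It had 8 counts (0.280 CPM) in the untreated empty-vector library and 27 and 16 (0.677 and 0.505 CPM) in the UV-treated ones. In shPIP4K2B it was 1.70 and 2.15 CPM untreated and 2.39 and 2.22 after UV-C, and in the double knockdown 1.16 and 1.55, then 1.43 and 1.90. These rises were firm, at 2.79 and 2.03 in shPIP4K2B (edgeR adjusted p = 0.00126 and 0.000265) and 2.23 and 1.52 in the double knockdown (adjusted p = 0.00920 and 0.00302). In shPIP4K2A, at 1.22 and 0.893 CPM untreated and 1.67 and 1.38 after UV-C, the calls were 1.87 and 1.31. They were lost without untreated shPIP4K2A replicate 1 (edgeR adjusted p = 0.108) and without UV-treated empty-vector replicate 2 (0.0604).

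Of the FACIT genes, COL16A1 (chr1:31652247-31704319, minus strand), which associates with fibrils and with cell-matrix contacts, was higher in the knockdown lines. It was 25.7 CPM in the untreated empty-vector library, 55.5 and 62.7 in shPIP4K2A, 38.9 and 36.9 in shPIP4K2B, and 57.9 and 70.3 in the double knockdown. The values after UV-C were 20.7 and 19.3, 84.4 and 43.2, 35.8 and 35.8, and 55.6 and 54.6 CPM. No knockdown library overlapped the controls. After UV-C the rise was firm in shPIP4K2A (1.64, SE 0.229, edgeR adjusted p = 0.000405) and the double knockdown (1.51, SE 0.229, adjusted p = 0.000839). The untreated calls, 1.17 and 1.30, were lost without either untreated shPIP4K2A library (edgeR adjusted p up to 0.0646) and without replicate 2 of the untreated double knockdown (0.0952). In UV-treated shPIP4K2B the call (0.92, edgeR adjusted p = 0.0136) was lost without any of the 4 libraries compared. COL9A2, a cartilage FACIT chain, was 10.9 CPM in the untreated empty-vector library and 4.86 and 6.12 in shPIP4K2B (-0.97, edgeR adjusted p = 0.0328, up to 0.182 with a library left out). COL22A1, found at tissue junctions, was 7.20 CPM there and 4.55 and 4.79 in shPIP4K2B (-0.60, edgeR adjusted p = 0.0439, up to 0.169). After UV-C it was 5.54 and 5.87 CPM in the empty vector and 9.36 and 7.41 in shPIP4K2A, a call of 0.52 (SE 0.137, edgeR adjusted p = 0.0184, up to 0.1399 with a library left out). The untreated double knockdown was above shPIP4K2B by 0.51 (edgeR adjusted p = 0.0293, up to 0.169).

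COL18A1, whose C-terminal fragment is endostatin, was 6.605 to 13.6 CPM and was called only in UV-treated shPIP4K2B (0.59, edgeR adjusted p = 0.0416, up to 0.196 with a library left out). COL7A1, the anchoring-fibril chain of skin, was 3.47 to 8.73 CPM and COL12A1, a large FACIT chain of tendon and growing bone, 489 to 756 CPM. Both were called in none of the 16 comparisons with TMM. Of the 13 tested genes below 1 CPM, 4 had calls. COL20A1 was lower in the double knockdown (-1.61 untreated, -1.41 after UV-C; edgeR adjusted p = 0.0347 and 0.0365). COL15A1 was higher in UV-treated shPIP4K2A (1.025, edgeR adjusted p = 0.0443), COL24A1 in UV-treated shPIP4K2B (1.60, adjusted p = 0.0438), and COL19A1 was lower in the untreated double knockdown than in shPIP4K2A (-2.26, adjusted p = 0.0362). These calls rest on few counts, at most 58 in any library used for COL20A1, 50 for COL15A1, 21 for COL24A1 and 18 for COL19A1. Whether they held under the alternatives was not examined.

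Compared directly while untreated, the knockdown lines differed in 6 collagen genes between shPIP4K2B and shPIP4K2A (2 higher, 4 lower; 15.8% of those tested), with 3.16% of all genes called (1.45% higher, 1.71% lower). The double knockdown had 6 higher and 4 lower than shPIP4K2A (26.3%), with 7.1% of all genes called (3.53% higher, 3.57% lower). It had 8 higher and 4 lower than shPIP4K2B (31.6%), with 15.4% of all genes called (7.32% higher, 8.06% lower). With ribosomal protein scaling these counts were 1 and 6, 6 and 6, and 11 and 4, beside 0.456% and 2.51%, 2.25% and 2.42%, and 9.19% and 3.98% of all genes. Of these calls among the described members, 2 of 6, 7 of 9 and 7 of 12 were firm. The firm ones are those named above for COL1A1, COL3A1, COL4A1, COL4A4, COL5A2, COL6A3, COL8A1, COL11A1, COL13A1 and COL27A1.

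At 6 h after UV-C, the direction of collagen change depended on the scaling of the libraries. With TMM, edgeR's usual scaling, 1 collagen gene was called higher in the empty vector (2.63% of those tested), with 18.5% of all genes called (8.67% higher, 9.82% lower). In shPIP4K2A 10 were higher and 1 lower (28.9%), with 30.6% of all genes called (16.6% higher, 14% lower). In shPIP4K2B 6 were higher and 1 lower (18.4%), with 32.9% called (17.5% higher, 15.4% lower), and in the double knockdown 6 and 1 (18.4%), with 35.2% called (19.1% higher, 16.1% lower). These shares were near or below those of all genes. COL13A1 (0.61, edgeR adjusted p = 0.0496) was the 1 gene called in the empty vector. In shPIP4K2A the described members called higher ran from COL4A1 (0.25) and COL6A3 (0.29) through COL11A1 (0.33), COL5A2 (0.41), COL17A1 (0.42), COL6A1 (0.48), COL4A2 (0.54) and COL22A1 (0.54) to COL26A1 (0.77) and COL9A2 (0.78). In shPIP4K2B they were COL5A1 (0.38), COL6A1 (0.51), COL17A1 (0.51), COL4A2 (0.52), COL6A2 (0.62) and COL9A2 (0.74), and in the double knockdown COL6A3 (0.29), COL5A1 (0.30), COL17A1 (0.36), COL22A1 (0.43), COL6A2 (0.49) and COL9A2 (0.64). COL20A1 (-1.25 and -1.34, edgeR adjusted p = 0.0197 and 0.0144) and COL27A1 (-0.50) were the lower ones. When libraries were scaled instead to 78 cytosolic ribosomal protein genes, the median of all genes moved to -0.70, -0.79, -0.90 and -0.85 in the 4 lines. Of the 25 described members, 9, 18, 19 and 20 lay above 0 with TMM and 1, 0, 0 and 0 with ribosomal protein scaling, under which 21, 21, 23 and 23 were called lower and none higher. Of the 38 tested members 57.9%, 63.2%, 76.3% and 68.4% were called lower under that scaling, beside 48.1%, 63.9%, 67.1% and 65% of all genes. A change of scaling shifts every gene of a comparison by about the same amount. With ribosomal protein scaling left aside, still none of the 24 calls under TMM among the described members held. Each was lost under at least 1 of the other alternatives run on the 15 libraries, which include RLE size factors. The order of genes within a library does not depend on scaling. COL9A2 had the highest log2 fold change of the 25 in each knockdown line (0.78, 0.74 and 0.64 with TMM; -0.04, -0.17 and -0.23 with ribosomal protein scaling). COL7A1 was lowest with TMM in the empty vector and both single knockdowns (-0.42, -0.33 and -0.46), and COL27A1 in the double (-0.50).

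**Figure D4:**
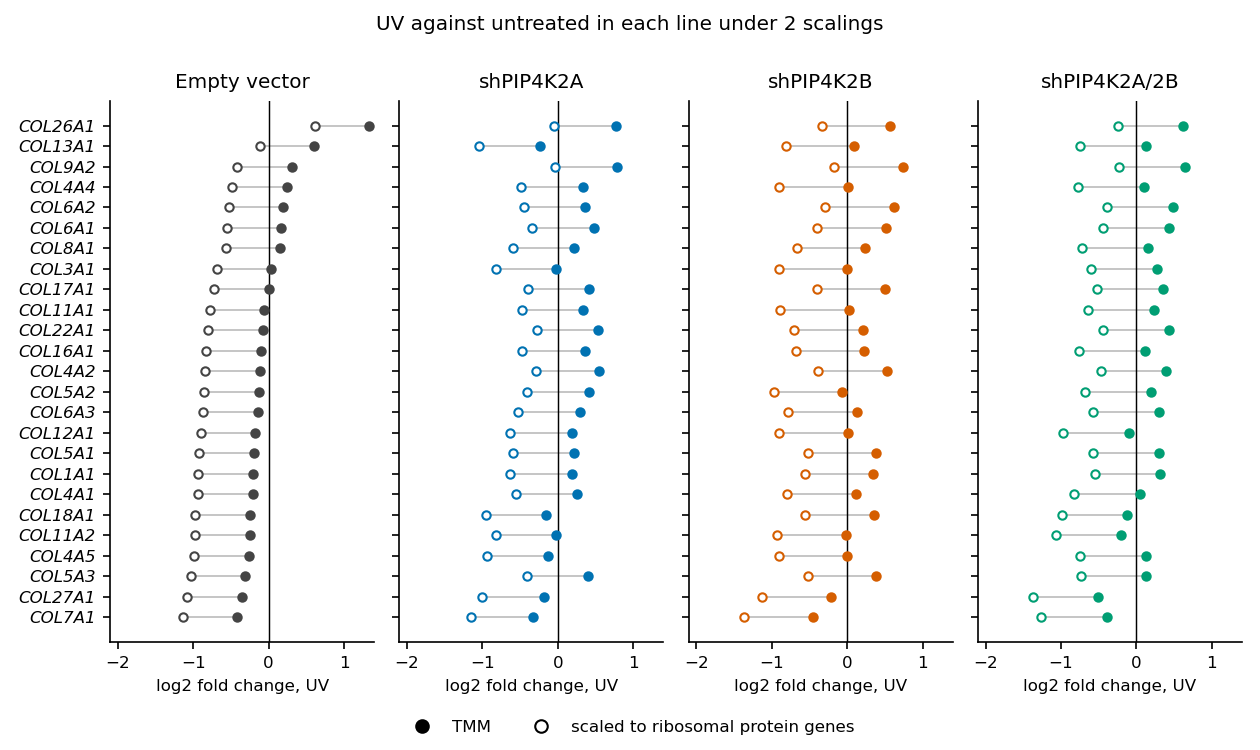
Log2 fold change after UV-C of the 25 described collagen genes in each of the 4 lines, with TMM (filled) and with ribosomal protein gene scaling (open). The open points lie to the left of the filled ones, and with ribosomal protein scaling 1 point of the empty vector (COL26A1) and none of the knockdown lines is above 0.

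In shPIP4K2A the UV-treated replicates also differed from each other, for example in COL4A2 (559 and 358 CPM) and COL16A1 (84.4 and 43.2). Without its replicate 2 the count of collagen genes called after UV-C was 18, not 11. Whether the response to UV-C differed from that of the empty vector was tested as an interaction. No collagen gene passed in shPIP4K2A, shPIP4K2B or the double knockdown by edgeR or by DESeq2. Of all genes edgeR called 0.00885% in shPIP4K2A (0.00443% higher, 0.00443% lower), 0% in shPIP4K2B and 0.00885% in the double knockdown. At an unadjusted p under 0.05 edgeR had 10, 7 and 4 of 38 (26.32%, 18.42% and 10.53%), beside 4.91%, 7.32% and 5.35% of all genes. DESeq2 had 9, 4 and 3 (23.68%, 10.53% and 7.895%), beside 3.05%, 4.85% and 2.7%. The differences in log2 response ranged from -0.84 (COL13A1) to 0.70 (COL5A3) in shPIP4K2A, from -0.76 (COL26A1) to 0.70 (COL5A3) in shPIP4K2B and from -0.71 (COL26A1) to 0.52 (COL1A1) in the double knockdown, with median standard errors of 0.218, 0.224 and 0.219. Of the 25 described members 22, 20 and 20 lay above 0. Their medians were 0.36, 0.27 and 0.26, beside -0.01 to 0.01 for all genes. Each of these differences rests on the single untreated empty-vector library. Without replicate 2 of UV-treated shPIP4K2A, 10 collagen genes passed in that line.

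COL12A1 was called in no comparison of level with TMM, while its estimated transcript length was lower after UV-C. With ribosomal protein scaling its level was called lower after UV-C in every line. The log2 fold changes were -0.90 in the empty vector, -0.63 in shPIP4K2A, -0.90 in shPIP4K2B and -0.98 in the double knockdown. The deposited tables give each gene a length weighted by how its reads were divided among its transcripts, and for COL12A1 (chr6:75084326-75206051, minus strand) this was 9064 bases in the untreated empty-vector library and 5886 and 5808 after UV-C. In shPIP4K2A it was 7756 and 8435, then 6774 and 6725; in shPIP4K2B 8094 and 8690, then 7264 and 7278; and in the double knockdown 8569 and 9592, then 6672 and 6613. In each line both UV-treated libraries lay below the untreated ones. A limma fit to log2 length over 11541 genes, added after the values were seen, gave -0.63 in the empty vector (SE 0.0717, adjusted p = 0.0151), -0.26 in shPIP4K2A (SE 0.0586, adjusted p = 0.0641), -0.21 in shPIP4K2B (SE 0.0586, adjusted p = 0.155) and -0.45 in the double knockdown (SE 0.0586, adjusted p = 0.0103). The share of all genes called was 0.78%, 2.24%, 1.51% and 2.44%. The calls were lost without either UV-treated empty-vector library (limma adjusted p up to 0.0724) and without either UV-treated double-knockdown library (up to 0.0857). Keeping the set-aside library made the empty-vector value 0.32, and the double-knockdown call was lost (limma adjusted p = 1). COL12A1 was the only one of 23 collagen genes tested that passed in any line, with 5, 5, 5 and 3 of 23 at an unadjusted p under 0.05 (21.7%, 21.7%, 21.7% and 13%), beside 11.1%, 17.6%, 13.4% and 14.2% of all genes tested for length. The lengths are estimates from short reads, and which transcripts lost or gained reads was not tested.

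**Figure D5:**
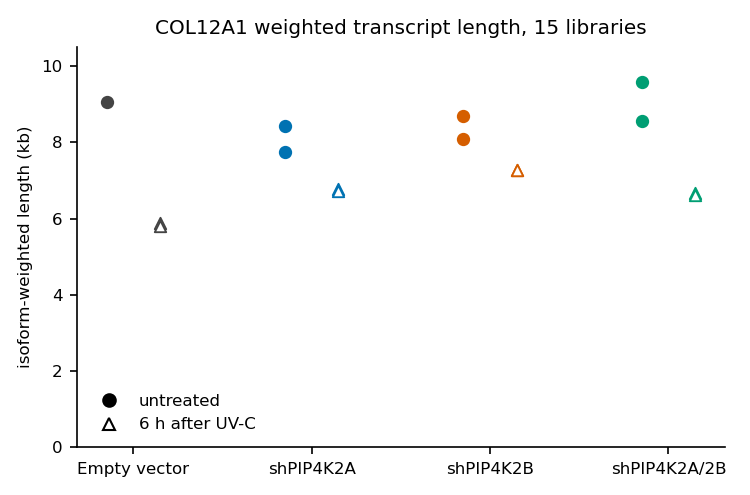
Weighted transcript length of COL12A1 in kilobases for each of the 15 libraries, by line, untreated (filled) and after UV-C (open). The UV-treated libraries lie at 5.81 to 7.28 kb and the untreated ones at 7.76 to 9.59 kb.

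Genes that modify, secrete, process, bind and degrade collagen chains were listed along with 12 regulators, among them RUNX2, SOX9, SMAD7 and TGFBR1. The counts and medians below include those regulators. The whole list held 69 companion genes, of which 67 were tested. In untreated cells 3 were called higher and 18 lower in shPIP4K2A, beside 3.71% and 4.13% of all genes. In shPIP4K2B the counts were 6 and 22, beside 5.26% and 4.99%, and in the double knockdown 3 and 10, beside 3.24% and 2.96%. Their median log2 fold changes were -0.25, -0.34 and -0.17, beside -0.01 to 0.01 for all genes. With ribosomal protein scaling, which moved the medians of all genes by 0.32, 0.15 and 0.26, the counts were 8 higher and 7 lower, 6 and 14, and 6 and 3. All genes were then called higher in 10.2%, 5.74% and 7.76% and lower in 1.33%, 2.41% and 0.974%. Without replicate 1 or 2 of the untreated double knockdown its counts became 3 higher and 3 lower or 2 and 3, and without replicate 1 or 2 of UV-treated shPIP4K2A, through the shared fit, 7 and 20 or 7 and 23. Leaving out the latter libraries gave 7 and 26 or 7 and 27 in untreated shPIP4K2A, and leaving out replicate 1 of untreated shPIP4K2A gave 2 and 12. In shPIP4K2B, 3 and 17 or 3 and 16 were called without replicate 1 or 2 of that untreated group. When the set-aside library was kept, 1 and 0, 0 and 1, and 0 and 0 companions were called in the 3 untreated lines.

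After UV-C the companion counts with TMM were 9 higher and 21 lower in shPIP4K2A, beside 11.3% and 9.01% of all genes, 8 and 20 in shPIP4K2B, beside 10.7% and 8.3%, and 6 and 13 in the double knockdown, beside 8.5% and 6.86%. With ribosomal protein scaling they became 17 higher and 10 lower, 8 and 18, and 9 and 5, beside 21.3% and 3.69%, 8.34% and 6.59%, and 12.1% and 3.4% of all genes. In the double knockdown the counts were 6 and 5 without either UV-treated empty-vector library, and 6 and 4 or 6 and 3 without its own replicate 1 or 2. Without replicate 1 or 2 of UV-treated shPIP4K2A they were 10 and 17 or 9 and 17. In shPIP4K2A they were 5 and 17 or 6 and 12 without empty-vector replicate 1 or 2, and 14 and 25 without its own replicate 2. The set-aside library, when kept, left 1 and 0, 0 and 1, and 0 and 0.

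Among the receptors, DDR2, a receptor kinase for fibrillar collagen, was lower in every knockdown library than in any empty-vector library. It was 130 CPM in the untreated empty-vector library and 108 and 98.9 after UV-C, and 36.3 to 77.7 CPM in the 12 knockdown libraries. Its untreated log2 fold changes were -1.31, -1.43 and -0.78 in shPIP4K2A, shPIP4K2B and the double knockdown (edgeR adjusted p = 6.02e-06, 2.04e-06 and 0.000262), all firm. DDR1, the related receptor found on epithelial cells, was higher in the double knockdown, by 0.66 untreated and 0.90 after UV-C (edgeR adjusted p = 0.00722 and 7.82e-05, firm). ITGA2, a collagen-binding integrin subunit, was higher in shPIP4K2B, at 42.4 and 41.7 CPM against 19.3 untreated (1.15, edgeR adjusted p = 0.000300, firm).

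Among processing genes, PCOLCE, which speeds removal of the collagen C-propeptide, was lower in all 3 untreated lines (-1.14, -0.87 and -1.37; edgeR adjusted p = 0.00104, 0.00402 and 0.000321, firm). LOXL4, a crosslinking enzyme, was lower in both single knockdowns (-0.80 and -1.01, edgeR adjusted p = 0.000872 and 0.000104, firm). CREB3L1, a transcription factor that acts on COL1A1 in bone cells, was 118 CPM in the untreated empty-vector library, 56.4 and 57.4 in shPIP4K2A and 41.2 and 43.9 in shPIP4K2B (-1.09 and -1.44, edgeR adjusted p = 0.00339 and 0.000373, firm). SERPINH1, the collagen chaperone HSP47, was lower in shPIP4K2B (-0.77, edgeR adjusted p = 0.000787, firm), while the lysyl hydroxylase PLOD3 was higher there (0.74, adjusted p = 0.00404, firm). Of the degrading enzymes, MMP2 was 386 CPM in the untreated empty-vector library, 230 and 224 in shPIP4K2A and 134 and 142 in shPIP4K2B (-0.80 and -1.46, edgeR adjusted p = 0.000722 and 4.97e-06, firm). MMP13, a collagenase, was 3.11 CPM there, 14.99 and 12.5 in shPIP4K2A and 2.00 and 1.72 in shPIP4K2B. Its rise in shPIP4K2A (2.11, edgeR adjusted p = 3.26e-05) was firm, and its fall in shPIP4K2B (-0.70, adjusted p = 0.0342) was firm only after UV-C (-0.87, adjusted p = 0.00201).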

How the data were processed

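RNA of 16 libraries was measured, and 15 were used. The authors deposited a gene table per library with expected counts, TPM and lengths per the file headers; STAR, SAMtools, RSEM and GRCh38 appear in the submitters' processing notes without versions or order. The authors' deposited TPM values sum to the same total in each library, so they keep no depth. Neither the annotation release nor the strand setting is given in the sources used here; positions come from GENCODE release 29, in which 58420 of 60666 gene identifiers were found. Expected counts were rounded to whole numbers, filtered with filterByExpr (minimum count 10), scaled with TMM and tested in 1 fit of 8 groups (edgeR 4.0.16, quasi-likelihood, R 4.3.3), with Benjamini-Hochberg adjustment over all genes tested. The biological coefficient of variation was 11.3%. COL12A1 length was tested with limma 3.58.1 on genes averaging 100 counts or more and with 10 or more in each library. Alternatives were DESeq2 1.42.0, other scalings, no filter, a replicate term, the set-aside library kept and each library left out; the closing section gives their effect. Any described member past the test could be named, and at most 3 companions per role and comparison with a mean of at least 5 CPM. The members and lists were chosen with earlier results of these data known. The fit was tested on simulated data first.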

Additional observations from a re-analysis of the deposited data

Results flagged for a closer look

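The library set aside, replicate 1 of the untreated empty-vector cells, entered no comparison but held collagen signal not seen elsewhere. All 19 collagen genes below 1 CPM in the other libraries stood higher in it than in any of the other 15, and COL1A2 reached 201 CPM there against at most 0.627 CPM in the others. Of the 25 described members, 9 stood above the range of the other 15 libraries in it, 11 below and 5 within. Its 1280000 counts make low values imprecise, so that for COL26A1 0.782 CPM is 1 count. The cause was not tested.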

How the results depend on the processing

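Of the calls between lines among the 25 described genes, none changed sign under an alternative run on the 15 libraries. The block on replicate number changed no direction. Differences between replicate 2 and replicate 1 correlated at -0.117 to 0.187 over 21 pairs of groups (3 over 0.1 and 2 under -0.1). Such low values show little common shift by replicate number. They cannot tell whether same-numbered libraries share a culture or batch, and the labels do not say. With the replicate block the number of collagen genes called was 0, 8, 7 and 5 for UV-C in the empty vector, shPIP4K2A, shPIP4K2B and the double knockdown (1, 11, 7 and 7 without it), and 10, 8 and 8 untreated and 9, 12 and 15 after UV-C for the 3 lines against the vector. For UV-C in the empty vector DESeq2, RLE size factors and no filter gave 0 calls. In the double knockdown DESeq2 and RLE gave 4. With no filter the response differed from the empty vector for 1 gene in shPIP4K2A and 1 in shPIP4K2B. Ribosomal protein scaling gave 22, 24, 29 and 26 UV-C calls in the 4 lines, and 18 in UV-treated shPIP4K2A against the vector. With the set-aside library kept, UV-C calls were 5, 0, 0 and 0, calls against the vector 0, 1 and 0 untreated and 1, 2 and 1 after UV-C, and calls between knockdown lines 0, 0 and 1.

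With each library left out in turn, UV-C calls ranged from 0 to 3, 2 to 18, 2 to 10 and 0 to 14 in the 4 lines; untreated calls against the vector from 6 to 14, 6 to 15 and 6 to 14; those after UV-C from 5 to 15, 7 to 20 and 8 to 19; those between knockdown lines from 2 to 9, 7 to 14 and 7 to 16; and differences in response from 0 to 10 in shPIP4K2A, the 10 without its UV-treated replicate 2, and from 0 to 0 in the others. The lowest counts against the vector came without untreated shPIP4K2A replicate 1, either untreated shPIP4K2B library, untreated double-knockdown replicate 2, UV-treated vector replicate 2, UV-treated shPIP4K2B replicate 1, and UV-treated vector replicate 2 or double-knockdown replicate 1. Without untreated empty-vector replicate 2 no comparison with that group has a value.

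Ribosomal protein scaling reversed UV-C values to -0.11 for COL13A1 in the empty vector. In shPIP4K2A it gave -0.28 for COL4A2, -0.35 for COL6A1, -0.56 for COL4A1, -0.52 for COL6A3, -0.48 for COL11A1, -0.41 for COL5A2, -0.039 for COL9A2, -0.28 for COL22A1, -0.40 for COL17A1 and -0.047 for COL26A1. In shPIP4K2B it gave -0.38 for COL4A2, -0.39 for COL6A1, -0.29 for COL6A2, -0.52 for COL5A1, -0.17 for COL9A2 and -0.40 for COL17A1. In the double knockdown it gave -0.39 for COL6A2, -0.57 for COL5A1, -0.58 for COL6A3, -0.23 for COL9A2, -0.44 for COL22A1 and -0.52 for COL17A1. The set-aside library reversed COL13A1 to -1.99 for UV-C in the empty vector and to -1.14, -0.49 and -1.78 in the 3 untreated lines. It also reversed COL6A1 (0.16), COL6A2 (0.078) and COL6A3 (0.35) in shPIP4K2A, COL6A2 (0.31) and COL11A1 (0.0022) in shPIP4K2B, COL6A2 (0.11) in the double knockdown and the COL12A1 length change in the empty vector (0.32). The cause was not tested. The spread rose to a coefficient of 41.9% with that library.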
